A study of Mus musculus with 6 samples.

Results

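The 10 genes described here encode receptors and ligands of the tumor necrosis factor (TNF) superfamily that carry costimulatory or death signals in T cells. They are 7 receptors, Tnfrsf9 (known as CD137), Tnfrsf4 (OX40), Tnfrsf18 (GITR), Cd27, Tnfrsf1b (TNFR2), Tnfrsf1a (TNFR1) and Fas, and 3 ligands, Cd40lg, Tnfsf10 (TRAIL) and Cd70. They were chosen by symbol, and all 10 were found among the 32227 genes of the deposited count files. The study made single-cell RNA libraries with the PIPseq v3 chemistry from CD8+ T cells of the thymus, the spleen and B16-OVA tumors, B16-OVA being a mouse melanoma line that carries ovalbumin. Pdcd1 encodes the inhibitory receptor PD-1, and each tissue had 1 library from Pdcd1fl/fl mice, whose Pdcd1 alleles carry loxP sites, and 1 from Pdcd1 cKO mice, in which a Cre under the E8I element of Cd8a deletes Pdcd1 in CD8+ T cells. The mice were adult and on the C57BL/6 background, with no treatment for thymus and spleen, and the tumors were taken on day 12. Each thymic and splenic library came from 1 mouse, each tumor library pooled 3 mice, and CD8+ cells had been enriched with magnetic beads in every tissue.

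Pdcd1 itself went against the labels in the thymus and the spleen. In the thymus, Pdcd1 had 12 unique molecular identifiers (UMIs, counted RNA molecules) under the Pdcd1fl/fl label and 131 under the Pdcd1 cKO label. In the spleen it had 1 UMI and 104 UMIs, in the same order. Tumor T cell-like cells had 689 and 792 UMIs of Pdcd1, which were 183 and 153 counts per mega-UMI (CPM, UMIs of a gene scaled to a common library total), a log2 ratio of -0.25 (-0.40 to -0.10). The paper reports, by flow cytometry, loss of PD-1 in thymic CD8+ T cells of this mouse model and in CD8+ T cells of its B16-OVA tumors. The files give 1 count per gene and no exons, and the deleted exons are not stated. A 3' tag outside the deleted part checks nothing, so the genotype was tested in none of the 6 libraries. Groups are therefore called by their labels throughout, and values come in the order Pdcd1fl/fl label, then Pdcd1 cKO label. The thymic and splenic comparisons rest wholly on these 4 libraries, the tumor comparison uses none of them, and the comparison of tissues takes both libraries of a tissue, whichever label each bears. Y-linked genes were read in all 6 libraries, Ddx3y with between 751 and 5080 UMIs, and Xist had at most 12 UMIs.

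Depth differed between libraries. After the cell filter of the study (500 or more genes and 1000 or more UMIs per cell, mitochondrial share no higher than 20%), the thymic libraries held 1067 and 2635 cells with 6389966 and 19143524 UMIs, and a median of 4361 and 5417 UMIs per cell. The splenic libraries held 1478 and 4928 cells with 2220981 and 8923997 UMIs, and a median of 1320.5 and 1615 UMIs. The filter took them unevenly, keeping 1478 of 6929 deposited barcodes under the Pdcd1fl/fl label, where the median before the filter was 728 UMIs, and 4928 of 4963 under the Pdcd1 cKO label, so the splenic comparison rests on unequal selections. The tumor libraries held 456 and 561 cells with 9380835 and 7924590 UMIs, of which 282 and 457 cells fell in T cell-like clusters and were used for the tumor values, with 3774577 and 5163091 UMIs and a median of 11034.5 and 9177. With 1 library per tissue and label there were no replicates, so no test was made, and the 95% intervals below hold nothing but counting error.

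The labelled cell type was checked against its markers. All 8 T cell markers were read in every library, with a summed level of 6226 and 5842 CPM for thymic, 4307 and 5661 for splenic and 5659 and 6494 for tumor T cell-like cells. Cd8a and Cd8b1 summed to 270.1 and 434 CPM for thymic, 738 and 1114 for splenic and 753 and 919 for tumor T cell-like cells. Thymic libraries also held 5 of 5 markers of immature thymocytes at 827 and 697 CPM, most of all Dntt at 478 and 377 CPM. The splenic library labelled Pdcd1 cKO held 4 of 4 plasma cell markers at 1635 CPM, led by Igkc, against 88.2 CPM of 3 markers under the other label, where Sdc1 was at 0. Before T cell-like cells were taken, 141 (30.9%) and 58 (10.3%) of the tumor cells formed a melanoma-like cluster and 27 and 34 a macrophage-like cluster.

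TNF receptor family members are trimeric-ligand receptors that recruit adaptor proteins of the TRAF family or, through a death domain, adaptors of cell death. Costimulatory receptors such as CD137, OX40 and GITR are low on resting T cells and are induced by antigen receptor signals, whereas CD27 is carried by naive T cells and binds CD70 on activated cells. Fas and the TRAIL receptors trigger caspase-dependent death, and TNFR1 and TNFR2 bind the same cytokine but only TNFR1 has a death domain.

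Across tissues, the costimulatory receptors Tnfrsf9, Tnfrsf4 and Tnfrsf18 were the members that set tumor T cell-like cells apart, with higher levels in both tumor libraries than in any thymic or splenic library. Cd27 and Tnfrsf1b, by contrast, were read in all 3 tissues, and no tissue had both its libraries 2-fold above or below the rest. Fas had its highest levels in the spleen, and the ligand Cd70 was at or near 0 outside the tumors. The question was where along thymus, spleen and tumor CD8+ T cells these genes are read.

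Tnfrsf9, which encodes an activation-induced receptor that sustains CD8+ T cells, had 9.39 and 10.9 CPM in thymic, 10.8 and 14.1 in splenic and 655 and 636 in tumor T cell-like cells. Both tumor libraries lay far above the other 4, whose intervals overlapped from neighbour to neighbour, and the lower tumor value was 45.0-fold above the highest value elsewhere. Tnfrsf4, whose product supports survival of activated T cells, had 1.41 and 1.62 CPM in thymic, 2.70 and 3.59 in splenic and 224 and 93.9 in tumor T cell-like cells. Here too the tumor libraries stood clear of all others, by at least 26.2-fold, but they did not overlap each other. Tnfrsf18, which encodes a receptor abundant on regulatory and activated T cells, had 22.4 and 24.0 CPM in thymic, 69.3 and 82.8 in splenic and 256 and 180.1 in tumor T cell-like cells. Its levels were stepped, low in both thymic libraries, intermediate in both splenic ones and high in both tumor ones, with no overlap between tissues. The lower tumor value was 2.18-fold above the highest splenic value, and the higher thymic value was 2.89-fold below the lowest value elsewhere.

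Of the 10 members, 3 had both tumor libraries at least 2-fold above each of the other 4 (2.91% of the 16666 genes with at least 20 UMIs over the 6 libraries), and 0 had both at least 2-fold below (19.2%). In the thymus 0 members lay above in this way (4.3% of genes) and 1, Tnfrsf18, lay below (1.16%), and in the spleen 0 lay above (3.18%) or below (1.95%).

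Shares of cells gave the same picture for Tnfrsf9. With cells thinned to 1000 random UMIs, a Tnfrsf9 UMI was found in 43.6% (37.7 to 49.6) and 46.2% (41.5 to 50.9) of tumor T cell-like cells. Melanoma-like cells of the same libraries, which should lack the gene, gave 1.42% and 1.72% after thinning, from median depths of 31932 and 35962.5 UMIs against 11034.5 and 9177 in T cell-like cells. Thymic cells gave 0.843% and 0.987% and splenic cells 0.947% and 0.994%, and such low shares were not read as expression. The melanoma-like shares rest on 141 and 58 cells of libraries whose T cell-like cells were high in the gene. They therefore set no background for thymic or splenic cells. Without thinning, 89.7% and 97.2% of tumor T cell-like cells had a Tnfrsf9 UMI, as did 48.2% and 60.3% of melanoma-like cells.

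**Figure D1:**
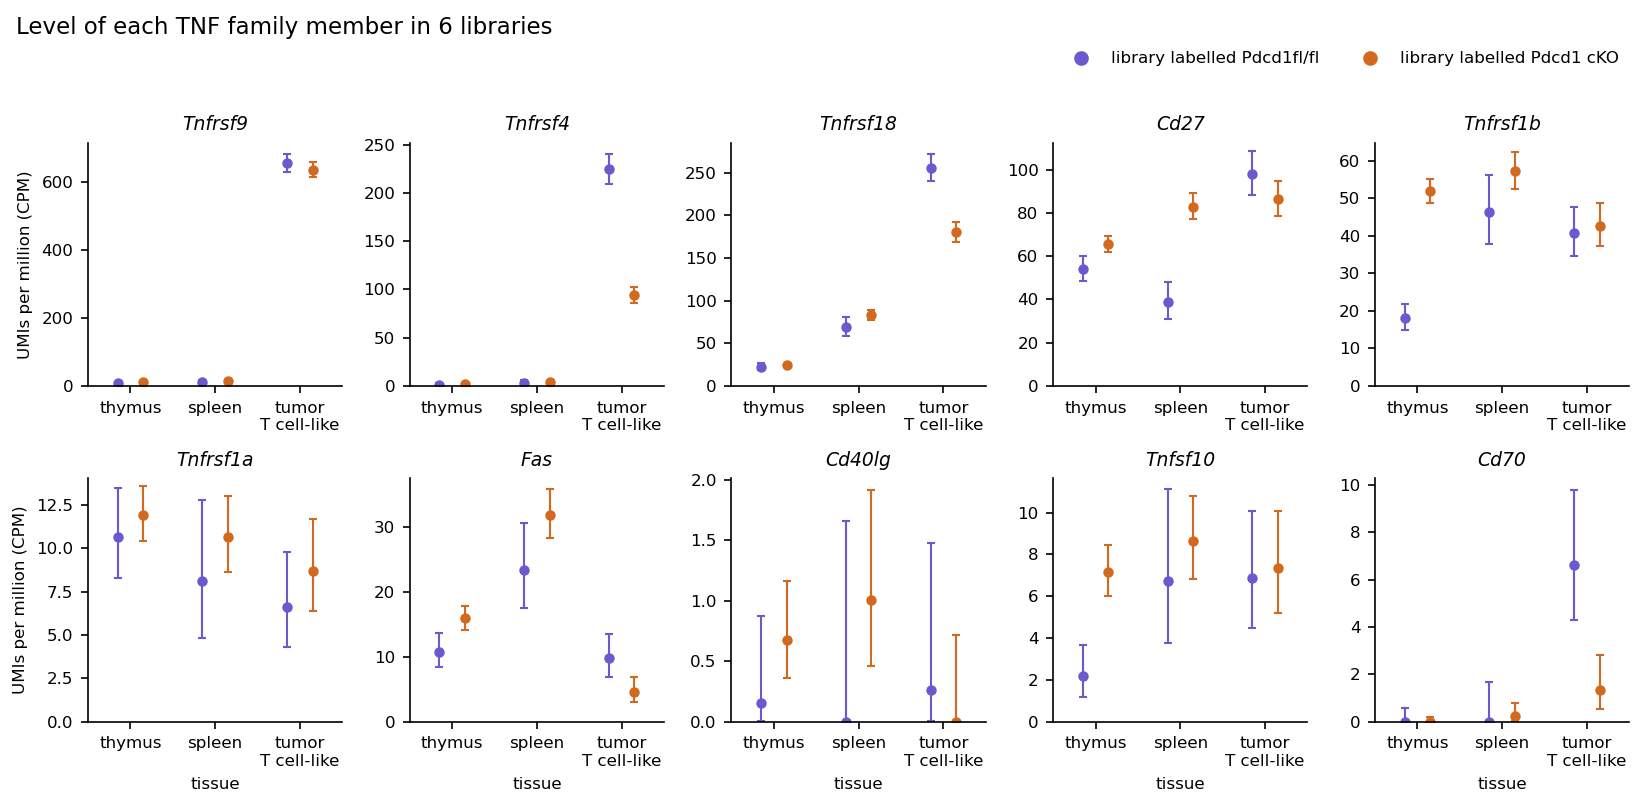
Level of each of the 10 genes in each library, in CPM (vertical axes, each panel on its own scale), by tissue and genotype label; bars are exact 95% Poisson intervals. In the panels of Tnfrsf9, Tnfrsf4 and Tnfrsf18 both tumor T cell-like values lie above the 4 thymic and splenic values.

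Among the remaining receptors, Cd27, which supports expansion and memory of T cells, had 53.8 and 65.5 CPM in thymic, 38.7 and 82.9 in splenic and 98.0 and 86.4 in tumor T cell-like cells. Both tumor values and the spleen under the Pdcd1 cKO label formed an overlapping top group, followed without overlap by the thymus under that label, the thymus under the other label and the spleen under the other label. Tnfrsf1b, the TNF receptor without a death domain, had 18.2 and 51.9 CPM in thymic, 46.4 and 57.3 in splenic and 40.8 and 42.6 in tumor T cell-like cells. The thymic library labelled Pdcd1fl/fl alone was low, and each of the other 5 overlapped its neighbour in the order. Tnfrsf1a, the TNF receptor with a death domain, ran only from 6.62 to 11.9 CPM over the 6 libraries, with every neighbour overlapping. Fas, a death receptor, had 10.8 and 15.9 CPM in thymic, 23.4 and 31.9 in splenic and 9.80 and 4.65 in tumor T cell-like cells. Its splenic libraries were highest and overlapped each other, and the lower of them also overlapped the thymic library labelled Pdcd1 cKO. It was 1.47-fold above the highest value elsewhere, short of 2-fold.

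The ligands were read sparsely. Tnfsf10, which binds death-inducing TRAIL receptors, had 2.19 and 7.16 CPM in thymic, 6.75 and 8.63 in splenic and 6.89 and 7.36 in tumor T cell-like cells. Only the thymic library labelled Pdcd1fl/fl was set apart, below an overlapping group of 5. Cd70, the ligand of CD27, had 25 and 7 UMIs (6.62 and 1.36 CPM) in tumor T cell-like cells, 0 and 2 UMIs in the spleen and 0 in both thymic libraries, where the intervals reach up to 0.577 and 0.193 CPM. The tumor library labelled Pdcd1fl/fl was thus alone at the top, and the others overlapped. Cd40lg, the ligand of CD40 known best from CD4+ T cells, had 1 and 13 UMIs in thymic, 0 and 9 in splenic and 1 and 0 in tumor T cell-like cells. It was low everywhere, with every neighbour in the order overlapping.

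In the thymus, the receptor Tnfrsf1b and the ligand Tnfsf10 were higher under the Pdcd1 cKO label, by 2.86-fold and 3.27-fold. Fas and Cd27 were higher there by less than 2-fold, and Tnfrsf9, Tnfrsf4, Tnfrsf18 and Tnfrsf1a did not differ beyond counting error. The comparison asks what loss of Pdcd1 goes with in thymic CD8+ T cells, and it is read here by label.

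Tnfrsf1b had 116 and 993 UMIs in the thymic libraries, or 18.2 (15.0 to 21.8) and 51.9 (48.7 to 55.2) CPM, a log2 ratio of 1.51 (1.24 to 1.80). The library labelled Pdcd1 cKO was the high one and the intervals lay apart. A Tnfrsf1b UMI was found in 1.59% and 6.30% of cells thinned to 1000 UMIs. Tnfsf10 had 14 and 137 UMIs, or 2.19 (1.198 to 3.68) and 7.16 (6.01 to 8.46) CPM, a log2 ratio of 1.71 (0.91 to 2.62). Again the intervals did not overlap, although thinned shares of 0.562% and 0.911% were too sparse to separate the libraries. Fas followed at 0.56 (0.18 to 0.96) and Cd27 at 0.28 (0.11 to 0.46). For Tnfrsf9 the log2 ratio was 0.21 (-0.21 to 0.65), for Tnfrsf4 0.20 (-0.90 to 1.46), for Tnfrsf18 0.10 (-0.17 to 0.38) and for Tnfrsf1a 0.16 (-0.23 to 0.58). Cd40lg had too few UMIs to place, with a log2 ratio of 2.12 (-0.62 to 7.53).

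Of the 8 members with at least 20 UMIs over both thymic libraries, 2 were at least 2-fold higher under the Pdcd1 cKO label (8.75% of 14381 genes) and 0 were at least 2-fold lower (5.33%). Their median log2 ratio was 0.25, beside -0.02 for all genes, and all 8 ratios were above 0.

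The thymic cells of the libraries differed in kind as well. Of 14 clusters, 8 held at least 90% of their cells from 1 library, and the level of Tnfrsf1b differed between clusters, from 7.51 CPM in cluster 1 to 142 CPM in cluster 6. Not every cluster of the library labelled Pdcd1 cKO was high. Cluster 4, with 6 and 355 cells, held 30.0% of all UMIs of that library but 7.65% of its Tnfrsf1b UMIs. Cluster 1 was named cycling-like and held 487 and 4 cells, while cluster 6, named effector-or-memory-like from 6 of 9 markers, held 1 and 195 cells and also had the highest levels of Pdcd1 (100.4 CPM), Tnfsf10 (32.3 CPM) and Cd27 (98.1 CPM) among the thymic cluster-by-library groups of at least 20 cells, to which the cluster levels given here are limited. Cluster 6 held 28 of the 137 Tnfsf10 UMIs and 123 of the 993 Tnfrsf1b UMIs of the library labelled Pdcd1 cKO. Clusters 0 and 2 of that library held more Tnfrsf1b UMIs, 243 and 170, and had 21 and 29 Tnfsf10 UMIs. Fas was highest, at 47.3 CPM, in cluster 0, where 4 of 6 markers of mature thymocytes were raised and which held 18 and 615 cells. An unnamed cluster 11, led by the connective tissue genes Rarres2 and Dcn, held 18 and 104 cells and had the highest levels of Tnfrsf9 (44.1 CPM) and Tnfrsf18 (82.6 CPM), and 11 of the 13 Cd40lg UMIs of its library.

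Within the 4 thymic clusters that allowed a ratio of Tnfrsf1b (at least 20 cells of each library), 2 ratios were above 0 and they ran from -0.47 to 1.17. Only that of cluster 5, 1.17 (0.27 to 2.21) from 11 and 109 UMIs, had an interval past 0. Summed over the clusters with at least 20 cells of each library, which kept 216 and 706 cells, the ratio of Tnfrsf1b was 0.25 (-0.19 to 0.72) and no longer 2-fold, that of Tnfsf10 was 2.88 (0.30 to 8.23) from 1 and 31 UMIs, that of Fas was -0.33 (-1.19 to 0.60) and that of Tnfrsf18 was -0.52 (-1.14 to 0.14). In the sum of these cells the ratio of Tnfrsf1b was within counting error of 0. Among members with at least 20 UMIs there, the direction was turned for Fas, Tnfrsf18 and, slightly, Tnfrsf1a. Effector and memory markers (9 of 9) had 1257 and 1607 CPM in the thymic libraries, led by Gzma and by Ccl5, and cycling markers (6 of 6) had 1507 and 815 CPM, led by Pclaf. Fibroblast markers (5 of 5, most of all Dcn) had 64.2 and 20.8 CPM. NK cell markers had 6.26 CPM (3 of 5, with Ncr1 and Klra4 at 0) and 14.1 CPM (5 of 5), led by Klre1. Erythroid markers had 0.156 CPM (1 of 4, Hbb-bs) and 7.42 CPM (4 of 4, led by Hbb-bs). The part of these cells in the ratios was not tested.

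In the spleen, Cd27 was the member that differed most, 2.14-fold higher in the library labelled Pdcd1 cKO. The other 7 measured members had ratios above 0 and below 2-fold, with only those of Fas and Tnfrsf18 past counting error, and all genes together were shifted the same way. The median log2 ratio of all 12272 genes was 0.17, so the splenic ratios of the members past counting error are also given relative to it. This comparison asks the same as in the thymus, for mature peripheral CD8+ T cells.

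Cd27 had 86 and 740 UMIs in the splenic libraries, or 38.7 (31.0 to 47.8) and 82.9 (77.1 to 89.1) CPM, a log2 ratio of 1.10 (0.77 to 1.44), or 0.93 relative to the median gene. The library labelled Pdcd1 cKO was the high one and the intervals lay apart. The ratio was below 2-fold with totals without mitochondrial, ribosomal protein and Malat1 counts, with the median of ratios and under the stricter cell filter, where it was 0.79 (0.01 to 1.68). After thinning, 2.91% (2.11 to 3.90) and 7.20% (6.50 to 7.96) of cells had a Cd27 UMI. In all 6 clusters that allowed it the Cd27 ratio was above 0, from 0.36 to 2.62 with 1 interval past 0, and cluster 2, which held 965 and 0 cells, gave 52 of the 86 Cd27 UMIs of its library at 36.5 CPM. The highest splenic level among groups of at least 20 cells, 116 CPM, lay in cluster 5, named effector-or-memory-like, with 2 and 381 cells. Plasma cell markers differed in the same direction (88.2 and 1635 CPM), and the plasma-like cluster 15, with 1 and 15 cells, held 0 and 1 of the Cd27 UMIs.

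Of the other receptors, Fas had a splenic log2 ratio of 0.45 (0.02 to 0.90) and Tnfrsf18 one of 0.26 (0.00 to 0.52). Relative to the median gene these were 0.28 and 0.09, with intervals on both sides of 0. Tnfrsf9 had 0.39 (-0.25 to 1.08), Tnfrsf4 0.41 (-0.87 to 1.96), Tnfrsf1b 0.30 (-0.00 to 0.62) and Tnfrsf1a 0.39 (-0.34 to 1.21), none clear of counting error. Under the stricter cell filter the direction was turned for Fas (-0.15), Tnfrsf1b (-0.06) and Tnfsf10 (-0.39), each with an interval on both sides of 0. Of the ligands, Tnfsf10 had a ratio of 0.35 (-0.46 to 1.26), while Cd40lg and Cd70 had too few UMIs for one. Of the 8 members with at least 20 UMIs, 1 was at least 2-fold higher (9.18% of genes) and 0 were at least 2-fold lower (2.83%), and the median ratio was 0.39. Over clusters with at least 20 cells of each library, which kept 464 and 3038 cells, 4 were at least 2-fold higher, Tnfrsf9 at 2.05 (0.13 to 5.12), Cd27 at 1.02 (0.49 to 1.61), Tnfrsf1a at 1.13 (-0.50 to 3.45) and Tnfsf10 at 1.10 (-0.53 to 3.43), and Tnfrsf1b was at -0.14 (-0.59 to 0.35). The share of all genes was not counted over these cells. Under the Pdcd1fl/fl label Tnfrsf9 had only 1 UMI in cluster 4 and 1 in cluster 8 among them. Cluster 2, which is not among them, held 20 of the 24 Tnfrsf9 UMIs of that library. Effector and memory markers (9 of 9, led by Ccl5) had 6436 and 11519.5 CPM, and granulocyte progenitor markers had 2.25 CPM (2 of 5, with Mpo, Elane and Ctsg at 0) and 77.4 CPM (5 of 5, led by Mpo). NK cell markers had 24.8 CPM (4 of 5, with Ncr1 at 0) and 59.4 CPM (5 of 5), led by Klre1, and erythroid markers 1.35 CPM (3 of 4, with Hba-a1 at 0) and 26.8 CPM (4 of 4), led by Hbb-bs. The part of these cells in the ratios was not tested.

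In tumor T cell-like cells Tnfrsf4, Fas and Cd70 were at least 2-fold lower in the library labelled Pdcd1 cKO. Tnfrsf18 was lower there by less than 2-fold. Tnfrsf9, in contrast, had nearly the same level under both labels. The comparison asks what loss of Pdcd1 goes with in CD8+ T cells inside a tumor, and it too is read by label.

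Tnfrsf4 had 847 and 485 UMIs, or 224 (209.5 to 240.0) and 93.9 (85.8 to 103) CPM, a log2 ratio of -1.26 (-1.42 to -1.09) or 2.39-fold. The library labelled Pdcd1fl/fl was the high one and the intervals lay far apart. Thinned shares were 15.6% (11.6 to 20.4) and 8.32% (5.95 to 11.2), beside 0 of 141 and 0 of 58 thinned melanoma-like cells. Tnfrsf18 had 965 and 930 UMIs, or 256 (239.8 to 272) and 180.1 (169 to 192) CPM, a log2 ratio of -0.51 (-0.64 to -0.37). Its intervals did not overlap either, whereas its thinned shares, 20.2% and 17.1%, did. Tnfrsf9 had 2472 and 3282 UMIs, or 655 (629 to 681) and 636 (614 to 658) CPM, a log2 ratio of -0.04 (-0.12 to 0.03). The interval leaves at most a small difference, and no high or low library could be named.

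Cd70 had 25 and 7 UMIs in tumor T cell-like cells, or 6.62 (4.29 to 9.78) and 1.36 (0.545 to 2.79) CPM, a log2 ratio of -2.29 (-3.74 to -1.04) or 4.89-fold. The library labelled Pdcd1fl/fl was higher, with no overlap, and no cell held more than 4 of its UMIs. Fas had 37 and 24 UMIs, or 9.80 (6.90 to 13.5) and 4.65 (2.98 to 6.92) CPM, a log2 ratio of -1.08 (-1.88 to -0.30) or 2.11-fold. These intervals touched, and the thinned shares of 0.355% and 0.438% gave no order. For Cd27 the ratio was -0.18 (-0.38 to 0.02), for Tnfrsf1b 0.06 (-0.24 to 0.37), for Tnfrsf1a 0.40 (-0.34 to 1.16) and for Tnfsf10 0.10 (-0.66 to 0.87). None of these lay beyond counting error, and the sign for Tnfrsf1b and Tnfsf10 depended on the scaling. Over clusters 2 and 3 the ratio of Tnfrsf1a was 1.03 (-0.18 to 2.23), past 2-fold from 14 and 13 UMIs and still within counting error.

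Of the 9 members with at least 20 UMIs over the tumor T cell-like cells, 0 were at least 2-fold higher under the Pdcd1 cKO label (9.45% of 10738 genes) and 3 were at least 2-fold lower (4.91%). Their median log2 ratio was -0.18, beside 0.08 for all genes. Over the cells of every class in the tumor libraries, the ratio of Tnfrsf4 was -0.50 and that of Fas -0.23, and those of Tnfrsf9, Tnfrsf18, Cd27, Tnfrsf1b and Tnfrsf1a turned direction or grew, to 0.64, 0.17, 0.48, 0.79 and -0.37, the share of melanoma-like cells being 30.9% and 10.3%. Effector and memory markers (9 of 9, led by Nkg7) had 3792 and 7644 CPM in tumor T cell-like cells, markers of naive or mature T cells (6 of 6) 425 and 99.4 CPM, and CD4 or regulatory T cell markers (4 of 4, led by Ikzf2) 21.99 and 12.4 CPM. Melanoma markers (8 of 8, most of all Dct and Pmel) had 265 and 176 CPM, and macrophage markers (8 of 9 with Csf1r at 0, and 9 of 9, led by Lyz2) 25.2 and 49.97 CPM. Plasma cell markers had 22.8 CPM (3 of 4, with Jchain at 0) and 85.0 CPM (4 of 4), led by Igkc. The part of these cells in the ratios was not tested.

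**Figure D2:**
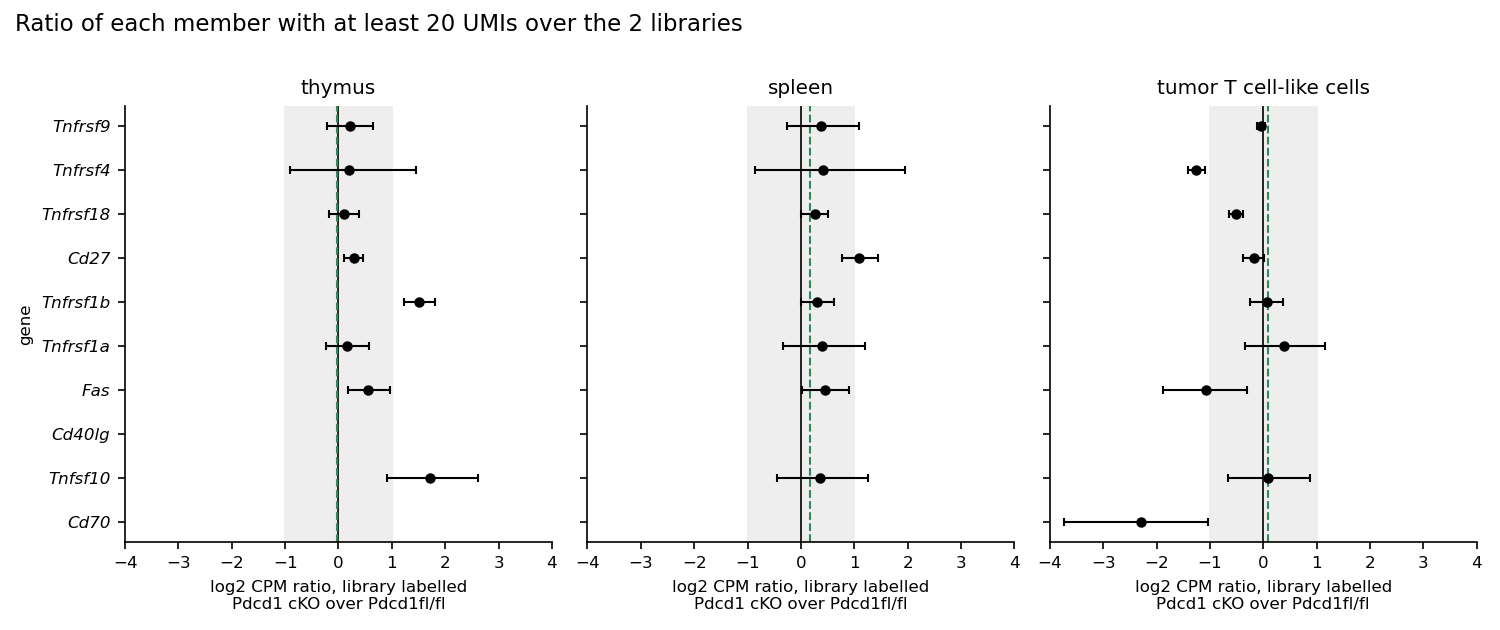
Log2 of the level under the Pdcd1 cKO label divided by that under the Pdcd1fl/fl label, for each gene with at least 20 UMIs in each tissue (horizontal axes); lines are 95% conditional binomial intervals, the grey band marks less than 2-fold, and the green dashed line is the median of all genes. Tnfrsf1b and Tnfsf10 in the thymus and Cd27 in the spleen lie above the band, and Tnfrsf4, Fas and Cd70 in the tumor lie below it.

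The T cell-like cells of the tumors were spread over clusters that the labels filled differently. Under the Pdcd1fl/fl label 117 cells lay in cluster 2, 110 in cluster 3, 26 in cluster 6, 17 in cluster 4 and 12 in cluster 0, and under the Pdcd1 cKO label 239 lay in cluster 0, 116 in cluster 4, 60 in cluster 2 and 42 in cluster 3. Clusters 0 and 4, the main ones under the Pdcd1 cKO label, had 66.2 and 67.6 CPM of Tnfrsf4 there, against 157 in cluster 2 and 166 in cluster 3 of the same library. Within that library, then, Tnfrsf4 was low in the clusters that made up most of it. Compared within cluster 2, Tnfrsf4 had 277 and 157 CPM, a log2 ratio of -0.82 (-1.14 to -0.51), and within cluster 3 it had 225 and 166 CPM, a ratio of -0.44 (-0.73 to -0.15). The direction was the same in both, at less than 2-fold, and over the clusters with at least 20 cells of each library (227 and 102 T cell-like cells) the ratio was -0.61 (-0.83 to -0.40).

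Tnfrsf9 differed between clusters too, with 536 and 478 CPM in cluster 2, 813 and 506 in cluster 3, and 662 in cluster 0 and 786 in cluster 4 of the library labelled Pdcd1 cKO. Within cluster 3 its log2 ratio was -0.68 (-0.85 to -0.52) and within cluster 2 it was -0.17 (-0.36 to 0.02), while the sums over all T cell-like cells were nearly equal. Tnfrsf18 was lower under the Pdcd1 cKO label in cluster 2, at 321 and 199 CPM, but not in cluster 3, at 229.8 and 234 CPM. Cd70 had 11.9 and 2.88 CPM in cluster 2 and 4.39 and 2.54 in cluster 3, where UMIs numbered 17 and 2 and then 8 and 2. Its log2 ratios there, -2.04 (-5.20 to 0.03) and -0.79 (-4.06 to 1.54), were each within counting error. Fas had 12.6 and 7.19 CPM in cluster 2 and 8.77 and 8.88 in cluster 3, and over the shared clusters its ratio of -0.37 (-1.45 to 0.62) was not distinguishable from 0. Cluster 6, which held cells of the library labelled Pdcd1fl/fl alone, was low in Tnfrsf9 (49.7 CPM), Tnfrsf4 (4.52 CPM), Tnfrsf18 (81.3 CPM) and Pdcd1 (4.52 CPM). It also held 1490 of the 1507 fibroblast marker UMIs of that library's T cell-like cells, 1489 of them in 1 cell, and without it the ratio of Tnfrsf4 was -1.34 and that of Tnfrsf9 -0.12 (-0.20 to -0.05).

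**Figure D3:**
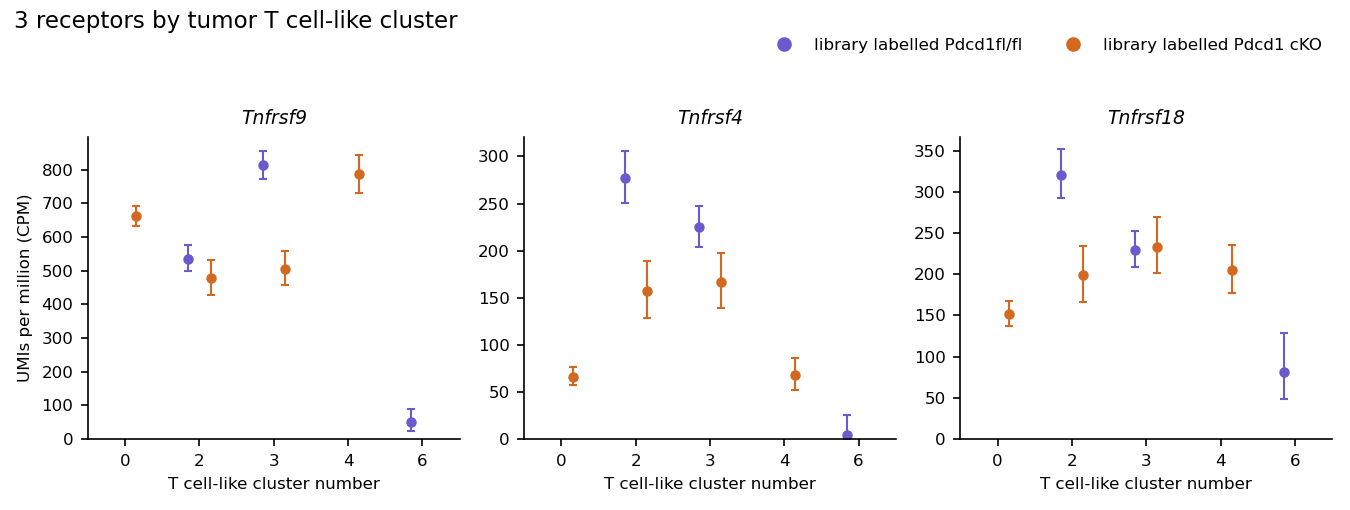
Level of Tnfrsf9, Tnfrsf4 and Tnfrsf18 in CPM (vertical axes) in each tumor T cell-like cluster with at least 20 cells of a library, by genotype label; bars are exact 95% Poisson intervals. Tnfrsf4 is highest in clusters 2 and 3 and lower in clusters 0, 4 and 6.

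Detection of the costimulatory receptors in the same tumor T cell-like cells was also counted. With each cell thinned to 5000 UMIs, 31.2% (25.8 to 37.0) of 282 cells and 16.2% (12.9 to 19.9) of 457 cells had UMIs of all 3 of Tnfrsf9, Tnfrsf4 and Tnfrsf18. The share was higher under the Pdcd1fl/fl label, melanoma-like cells thinned in the same way gave 0 of 141 and 0 of 58, and 7.09% and 3.50% of cells had none of the 3. Taken singly, Tnfrsf9 was found in 83.7% and 91.7%, Tnfrsf18 in 63.8% and 53.2% and Tnfrsf4 in 48.6% and 29.1% of these cells, beside 8.51% and 8.62%, 4.96% and 5.17%, and 1.42% and 0% of melanoma-like cells. Under the Pdcd1fl/fl label, 53.0% (46.4 to 59.5) of cells with a Tnfrsf9 UMI and 26.1% (14.3 to 41.1) of cells without one had a Tnfrsf4 UMI, and under the Pdcd1 cKO label these shares were 29.4% (25.04 to 34.0) and 26.3% (13.4 to 43.1). Without cluster 6, which came from the first library alone and was low in both genes, the shares of that library were 53.7% (47.0 to 60.2) and 48.0% (27.8 to 68.7). The cells without a Tnfrsf9 UMI then numbered 25, and 38 under the Pdcd1 cKO label. These are too few to show or exclude a link of Tnfrsf4 with Tnfrsf9 beyond that cluster. Tnfrsf4 was found in 53.9% (46.3 to 61.3) of cells with Tnfrsf18 and 39.2% (29.7 to 49.4) of cells without it under the Pdcd1fl/fl label, and in 32.9% (27.0 to 39.2) and 24.8% (19.1 to 31.1) under the Pdcd1 cKO label, overlapping in both. Without cluster 6 the share with all 3 receptors under the Pdcd1fl/fl label was 34.0% (28.2 to 40.1).

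Between the cell classes of the tumors, Tnfrsf9, Tnfrsf4, Tnfrsf18 and Cd27 were higher in T cell-like cells, Tnfrsf1a was higher in both other classes, and Tnfrsf1b was higher in macrophage-like cells only. Macrophage-like cells had the highest levels of Tnfrsf1b and Tnfrsf1a, but for Tnfrsf1a under the Pdcd1 cKO label they overlapped melanoma-like cells. Melanoma-like cells had far more Tnfrsf1a than T cell-like cells and hardly any Fas. The question here is which cells of a CD8-enriched tumor sample carry each gene.

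Tnfrsf9 had 655 and 636 CPM in T cell-like, 26.4 and 36.3 in melanoma-like and 61.3 and 183 in macrophage-like cells. T cell-like cells were highest in both libraries, with log2 ratios of 4.63 and 4.13 over melanoma-like and of 3.42 and 1.80 over macrophage-like cells. Tnfrsf4 had 3.80 and 3.94 CPM in melanoma-like and 3.83 and 26.5 in macrophage-like cells, from 1 and 10 UMIs. Tnfrsf18 had 7.97 and 10.1 CPM in melanoma-like and 26.8 and 31.8 in macrophage-like cells, and Cd27 had 2.47 and 7.00 and then 15.3 and 18.6 CPM. For all 4 genes both other classes lay below the T cell-like cells of the same library, with no overlap. T cell markers themselves had 160 and 276 CPM in melanoma-like and 755 and 1003 CPM in macrophage-like cells, with Cd3e at 9.11 and 18.8 and at 23.0 and 66.3 CPM against 299.9 and 387 CPM in T cell-like cells.

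Against these markers, Tnfrsf9 had 11.6 and 9.79 UMIs per 100 T cell marker UMIs in T cell-like cells, 16.5 and 13.1 in melanoma-like cells and 8.12 and 18.3 in macrophage-like cells. Tnfrsf18 had 4.52 and 2.77, then 4.98 and 3.64, then 3.55 and 3.17, in the same order of classes. Cd27 had 1.73 and 1.33, then 1.54 and 2.53, then 2.03 and 1.85. Tnfrsf4 had 3.96 and 1.45, then 2.37 and 1.42, then 0.508 and 2.65, the macrophage-like values from 1 and 10 UMIs. Measured this way, Tnfrsf9, Tnfrsf18 and Cd27 were at least 2-fold higher in T cell-like cells than in the other classes in neither library, and Tnfrsf4 was highest there only under the Pdcd1fl/fl label, by less than 2-fold over melanoma-like cells.

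Tnfrsf1a had 6.62 and 8.72 CPM in T cell-like, 56.8 and 64.7 in melanoma-like and 111 and 95.5 in macrophage-like cells. Both other classes were above T cell-like cells in both libraries, with log2 ratios of T cell-like over melanoma-like of -3.10 and -2.89 and over macrophage-like of -4.07 and -3.45. Tnfrsf1b had 40.8 and 42.6 CPM in T cell-like, 2.09 and 3.06 in melanoma-like and 103 and 141 in macrophage-like cells, placing T cell-like cells in the middle. Fas had 9.80 and 4.65 CPM in T cell-like, 0.569 and 0.875 in melanoma-like and 7.66 and 7.96 in macrophage-like cells, the last from 2 and 3 UMIs. T cell-like and macrophage-like cells overlapped in both libraries. Of the ligands, Tnfsf10 had 2.66 and 2.62 CPM in melanoma-like cells and 0 UMIs in macrophage-like cells of either library, Cd70 had 0 UMIs in both classes of both libraries, and Cd40lg had 3 UMIs in all classes and libraries together.

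Of the 9 members with at least 20 UMIs over the 3 classes, 4 were at least 2-fold higher in T cell-like cells than in each other class in both libraries (1.54% of 14055 genes). In the other direction, 1 was at least 2-fold lower in T cell-like than in melanoma-like cells (30.2% of genes) and 2 were lower than in macrophage-like cells (37.8%), where the counts are below or near the share of all genes.

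**Figure D4:**
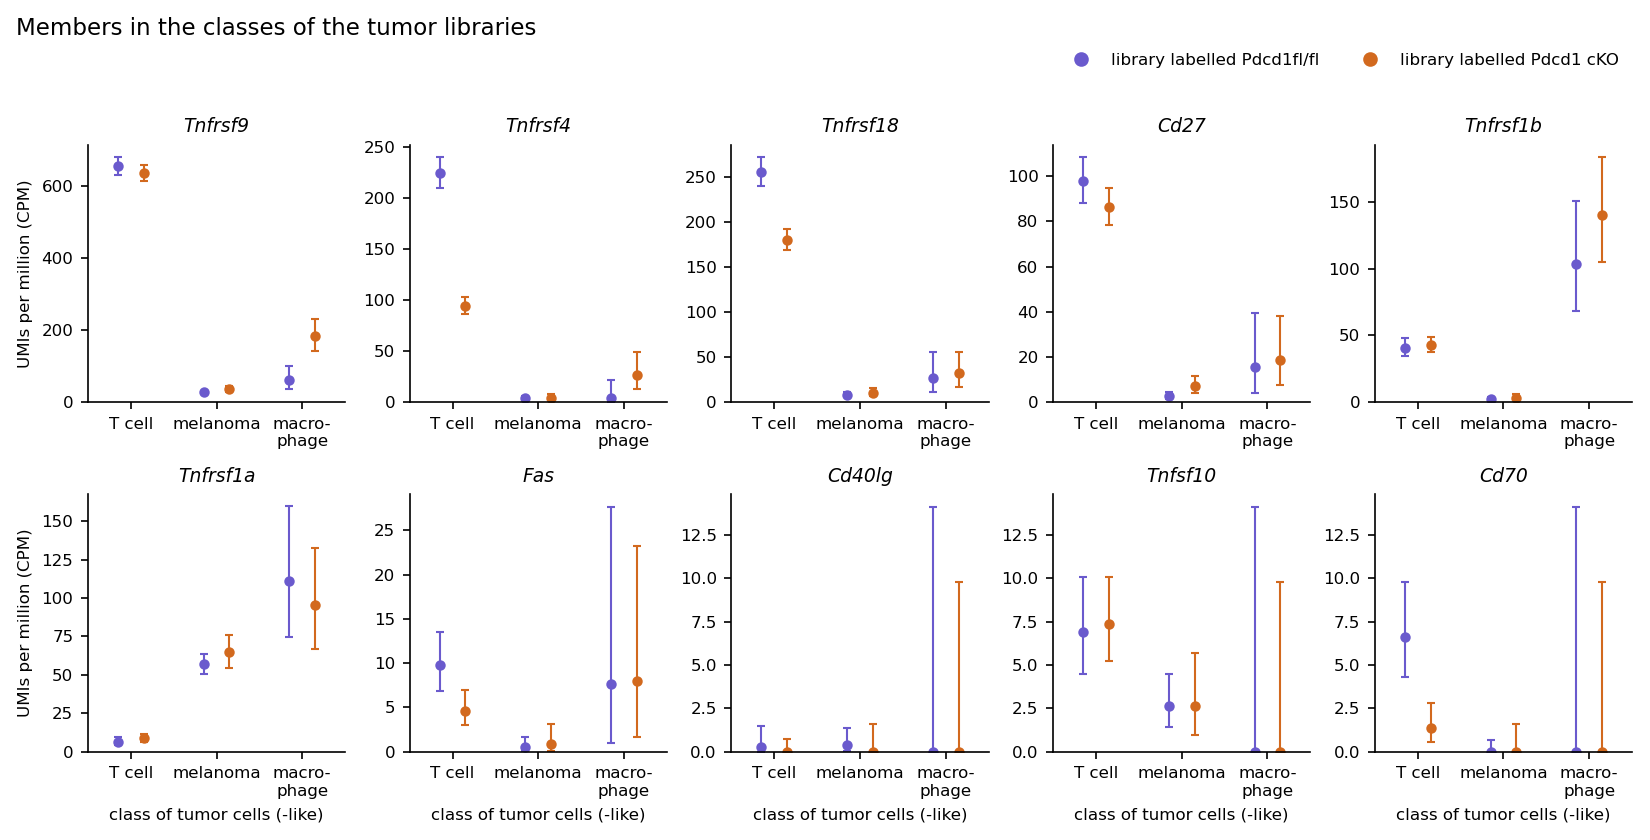
Level of each gene in CPM (vertical axes) in T cell-like, melanoma-like and macrophage-like cells of the tumor libraries, by genotype label; bars are exact 95% Poisson intervals. Tnfrsf9, Tnfrsf4, Tnfrsf18 and Cd27 are highest in T cell-like cells, and Tnfrsf1a and Tnfrsf1b in macrophage-like cells.

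The partners of these genes were spread over the same classes. Tnfsf9, the ligand of CD137, had 6.83 and 7.00 CPM in melanoma-like and 0.795 and 1.36 in T cell-like cells. Tnfsf4, the ligand of OX40, had 10.9 and 1.74 CPM in T cell-like cells, from 41 and 9 UMIs, a log2 ratio of -2.64 (-3.87 to -1.58). It was thus lower under the Pdcd1 cKO label together with its receptor Tnfrsf4. Tnfsf18, the ligand of GITR, had at most 1 UMI in any class or thymic or splenic library. Cd40, the receptor of the Cd40lg product, had 57.5 and 138 CPM in macrophage-like cells and 0 and 0.775 in T cell-like cells, and Tnf had 65.1 and 53.1 CPM in macrophage-like cells. Tnfrsf10b, which encodes a mouse TRAIL receptor, had 3.91 and 5.64 CPM in thymic, 23.0 and 13.2 in splenic and 1.59 and 1.36 in tumor T cell-like cells. Lta, which also binds the TNF receptors, had 5 and 7 UMIs in tumor T cell-like cells.

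The rest of the family and its signaling genes were counted from lists of 20 receptors, 15 ligands and 34 signaling genes. Of the 9 thymic ligands with at least 20 UMIs, 6 were at least 2-fold higher under the Pdcd1 cKO label (8.75% of all genes) and 0 lower (5.33%), with a median log2 ratio of 1.25 and 5 intervals past 0. Examples were Fasl, the ligand of Fas, at 3.91 and 13.9 CPM (1.83), Tnfsf8 at 3.44 and 11.5 CPM (1.75), Eda at 0.939 and 2.51 CPM (1.42), Tnf at 1.72 and 4.13 CPM (1.26) and Ltb, a lymphotoxin subunit, at 31.5 and 74.8 CPM (1.25). Of 14 other thymic receptors, 2 were higher and 0 lower with a median of 0.14, the 2 being Tnfrsf14 (1.19) and, from 3 and 18 UMIs and within counting error, Tnfrsf13c (1.00, -0.77 to 3.41).

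Splenic ligands had 3 of 8 at least 2-fold higher (9.18% of all genes) and 0 lower (2.83%) with a median of 0.82, namely Tnfsf14 at 4.05 and 12.1 CPM (1.58), Tnf at 7.65 and 22.5 CPM (1.56) and Fasl at 22.5 and 49.98 CPM (1.15). Relative to the median splenic gene, at 0.17, the ratio of Fasl was below 2-fold. Of 9 splenic receptors 2 were higher and 0 lower with a median of 0.12, Tnfrsf23 at 1.35 and 8.18 CPM (2.60) and Tnfrsf13b at 0.901 and 3.25 CPM (1.85), each with at most 3 UMIs under the Pdcd1fl/fl label. The ratio of Tnfrsf13b was within counting error (-0.13 to 4.96). In tumor T cell-like cells 2 of 6 ligands were higher (9.45% of all genes), Tnf at 2.38 and 6.20 CPM (1.38) and Fasl at 5.83 and 14.9 CPM (1.36), and 1, Tnfsf4, was lower (4.91%), with a median of 0.66. Fas and its ligand Fasl thus differed in opposite directions between the tumor libraries. The ratio of Fas stayed past 2-fold in 9 of 12 alternatives and was not distinguishable from 0 over the shared clusters. Of 2 measured receptors there, Tnfrsf12a was lower, at 7.95 and 3.10 CPM (-1.36), and the median was -0.29.

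None of the 34 signaling genes differed by 2-fold in the thymus (8.75% of all genes higher and 5.33% lower, median ratio 0.23) or the spleen (9.18% and 2.83%, median 0.19). In tumor T cell-like cells 2 were higher (9.45% of all genes) and 3 lower (4.91%), with a median of -0.16. Ripk3, a kinase of necroptosis, had 14.3 and 35.3 CPM (1.30) and Casp8, the initiator caspase of Fas and TRAIL receptors, 10.6 and 21.9 CPM (1.05). Lower were Traf4 at 27.6 and 11.2 CPM (-1.29), Traf1, an adaptor of CD137 and TNFR2, at 80.3 and 36.6 CPM (-1.13) and Tnfaip3, an inhibitor of NF-kB signals, at 102 and 50.6 CPM (-1.02).

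Over 52 groups of cells (18 thymic, 23 splenic and 11 tumor cluster-by-library groups with at least 20 cells), the likeness of each member to 11009 genes with at least 200 UMIs was measured as the Pearson correlation of log2(CPM + 1). The groups share libraries and differ in depth and tissue, so these values are descriptions. They include the differences between tissues, and Tnfrsf9 and Tnfrsf4 were both far higher in tumor T cell-like cells than in thymus or spleen. The tumor groups include the melanoma-like and macrophage-like cells of both libraries. Tnfrsf1a had 974 UMIs over the groups, against 479 over thymic, splenic and tumor T cell-like cells. Tnfrsf9 was most like Tnfrsf4 (r = 0.843), Ly6a (0.829) and Irf8 (0.820). Tnfrsf4 was most like Gldc (0.884), Tnfrsf9 (0.843) and Zgpat (0.837). Tnfrsf18 followed other genes, Pglyrp1 (0.811), Klrd1 (0.776) and Ptpn18 (0.766), and its correlation with Tnfrsf9 was 0.408 and with Tnfrsf4 0.455. For Tnfrsf1b the closest were the adaptor Traf1 (0.797), Ltb (0.761) and Rhof (0.756). Cd27 was closest to Nme3 (0.748), Gstt2 (0.744) and Cnp (0.742), Tnfrsf1a to Plod3 (0.829), Stx12 (0.801) and Alg1 (0.789), and Fas to Ubxn11 (0.832), Inpp1 (0.758) and Pja1 (0.740). Tnfsf10 had the weakest likenesses, with Usp13 (0.616), Jazf1 (0.602) and Spry2 (0.594), and Cd40lg and Cd70 had too few UMIs to be compared.

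In position, 4 of the 10 genes lie on chromosome 4 of GRCm39 and 2 on chromosome 6. Tnfrsf4 (ENSMUSG00000029075, chr4:156098293-156101069) and Tnfrsf18 (ENSMUSG00000041954, chr4:156110621-156113352) are neighbours on the plus strand, 9551 bases apart. Tnfrsf9 (ENSMUSG00000028965, chr4:150999019-151030559, plus strand) lies 5067733 bases before Tnfrsf4, and Tnfrsf1b (ENSMUSG00000028599, chr4:144938938-144973477, minus strand) a further 6025541 bases before it. So the 3 receptors that were high in tumor T cell-like cells share a chromosome, and the closest pair had a likeness of 0.455 against 0.843 for the distant pair Tnfrsf9 and Tnfrsf4. Cd27 (ENSMUSG00000030336, chr6:125209585-125213988, minus strand) and Tnfrsf1a (ENSMUSG00000030341, chr6:125325566-125339632, plus strand) share chromosome 6. Fas (ENSMUSG00000024778) lies at chr19:34268001-34305173 and Tnfsf10 (ENSMUSG00000039304) at chr3:27371033-27396576, both on the plus strand. Cd40lg (ENSMUSG00000031132) lies at chrX:56257405-56269902 on the plus strand and Cd70 (ENSMUSG00000019489) at chr17:57452997-57456777 on the minus strand.

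Promoter sequences from RefSeq, on GRCm38.p6 and 300 bases long, were found for 8 of the 10 genes, as 9 promoters. They were searched on both strands for a motif of NF-kB (GGG, any 5 bases, CC), a motif of AP-1 (TGANTCA) and a motif of STAT proteins (TTCNNNGAA), where matches to the NF-kB motif can overlap each other. These motifs are held by 50.8%, 7.81% and 8.30% of all 32851 promoters in the same table, and by 5, 2 and 5 of the 9 promoters. The promoters of Tnfrsf9, Tnfrsf4 and Tnfrsf18 are shown because these receptors were high together in tumor T cell-like cells, with every match in capitals. All 4 lie on the plus strand, the first of Tnfrsf9 at chr4:150919905-150920204, its second at chr4:150927749-150928048, that of Tnfrsf4 at chr4:156013445-156013744 and that of Tnfrsf18 at chr4:156026072-156026371.
Tnfrsf9 first promoter: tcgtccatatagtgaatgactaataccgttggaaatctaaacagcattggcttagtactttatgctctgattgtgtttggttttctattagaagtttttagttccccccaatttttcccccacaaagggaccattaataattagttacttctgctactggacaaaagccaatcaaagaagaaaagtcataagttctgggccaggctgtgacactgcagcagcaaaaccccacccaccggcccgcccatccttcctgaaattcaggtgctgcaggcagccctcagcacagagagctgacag
Tnfrsf9 second promoter: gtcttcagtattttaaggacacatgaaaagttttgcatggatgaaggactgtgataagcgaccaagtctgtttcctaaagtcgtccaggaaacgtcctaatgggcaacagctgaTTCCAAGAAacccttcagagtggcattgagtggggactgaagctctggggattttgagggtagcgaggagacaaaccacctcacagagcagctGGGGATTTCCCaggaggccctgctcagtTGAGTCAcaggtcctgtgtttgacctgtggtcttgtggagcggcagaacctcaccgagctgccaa
Tnfrsf4 promoter: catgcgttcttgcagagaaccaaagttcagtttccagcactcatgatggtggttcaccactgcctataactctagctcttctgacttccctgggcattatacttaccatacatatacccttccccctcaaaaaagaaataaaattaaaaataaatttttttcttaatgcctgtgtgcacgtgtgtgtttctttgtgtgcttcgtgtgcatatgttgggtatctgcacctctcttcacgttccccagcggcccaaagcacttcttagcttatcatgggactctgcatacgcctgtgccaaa
Tnfrsf18 promoter: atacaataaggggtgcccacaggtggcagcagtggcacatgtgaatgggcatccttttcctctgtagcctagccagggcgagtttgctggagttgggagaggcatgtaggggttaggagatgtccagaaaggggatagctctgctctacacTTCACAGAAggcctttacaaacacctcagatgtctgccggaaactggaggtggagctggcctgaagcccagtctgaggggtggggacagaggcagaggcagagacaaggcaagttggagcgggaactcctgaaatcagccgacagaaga
Counted from base 1 at the 5' end, the second Tnfrsf9 promoter holds TTCCAAGAA at 115 to 123, GGGGATTTCC at 208 to 217 overlapping GGGATTTCCC at 209 to 218, and TGAGTCA at 236 to 242. The Tnfrsf18 promoter holds TTCACAGAA at 152 to 160, and the first Tnfrsf9 promoter and that of Tnfrsf4 hold no match. Of the other members, Fas holds all 3 motifs, Cd27 holds the NF-kB motif, Tnfrsf1b and Tnfrsf1a hold the NF-kB and STAT motifs, and Tnfsf10 holds none of the 3. A match is a description of letters, and no match says only that these letters are not in this window.

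These results have limits. Each label had 1 library per tissue, so a difference between labels cannot be told apart from one between mice, sorts or library preparations. Depth and cell make-up differed between the libraries, and many clusters came mostly from 1 library. Pdcd1 went against the labels in the thymus and the spleen and had 183 and 153 CPM in tumor T cell-like cells. The genotype was tested in none of the libraries. Small counts of Cd40lg, Cd70, Fas and Tnfsf10 leave wide intervals. RNA was counted, so receptor protein at the cell surface, ligand binding and cell death were not measured.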

How the data were processed

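The authors aligned PIPseq reads to GRCm39 and deposited, for each of the 6 libraries, raw UMI counts of 32227 genes in barcodes called as cells, with no normalization. Of 16651 barcodes, 11125 passed the filter of the study. Libraries were compared in pairs: of 15 pairs, 1 shared barcodes (2 of them, in the spleen), and 0 shared barcodes passed the filter. No doublet caller was run and no cell was removed as a doublet.

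For each gene the UMIs of all cells used were added up per library and divided by the total to give CPM. Intervals are exact Poisson for levels, Clopper-Pearson for shares and conditional binomial for ratios. A gene needed at least 20 UMIs over both libraries to be counted as at least 2-fold higher or lower, and a count of 0 was given a floor of 3 counts. Tools were Python 3.11.15 with numpy 2.4.6, scipy 1.17.1, pandas 2.3.3 and matplotlib 3.10.9, and R 4.3.3 with Seurat 5.3.0 and sctransform 0.4.2. Both libraries of each tissue went into 1 clustering by SCTransform and Louvain at resolution 0.8, without Harmony, which the authors used but which was not available, and without the members, family and signaling genes. A cluster was named when at least 3 markers of a list were each in at least 10% of its cells and at least 2-fold higher than elsewhere, and these thresholds were chosen once the data were known.

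The members and lists were chosen with earlier results of these data known. Named are all members, their partners, Pdcd1, up to 5 list genes per tissue and direction past 2-fold, the 3 genes most like each member, and check genes. Tnfrsf14 and Tnfrsf13c were named in the thymus beyond that rule, after their values had been seen. Ratios were checked on simulated counts. Alternatives changed the scaling, cell filter, cells used, UMI minimum, thinning, clustering resolution and cells with the most UMIs.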

Additional observations from a re-analysis of the deposited data

Results flagged for a closer look

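Some results stood out because the labels ordered the libraries of a tissue in opposite ways between tissues. Tnfrsf18 had a log2 ratio of 0.26 in the spleen and of -0.51 in tumor T cell-like cells, each with an interval on its own side of 0. Fas had 0.56 in the thymus and 0.45 in the spleen but -1.08 in tumor T cell-like cells. The difference between tissues was not tested, since each tissue had 1 library per label, and the splenic values are within counting error of the median gene.

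Signal was also read in cells that the comparisons left out. A tumor cluster of 6 and 12 cells, named CD4-or-regulatory-T-like from Cd4, Foxp3 and Ikzf2, had 952 and 1114 CPM of Tnfrsf9, 1108 and 678 CPM of Tnfrsf4 and 1017 and 759 CPM of Tnfrsf18. In both libraries these levels lay above those of T cell-like cells, by log2 ratios of T cell-like over this cluster of -0.54 and -0.81 for Tnfrsf9, -2.30 and -2.85 for Tnfrsf4 and -1.99 and -2.08 for Tnfrsf18. Foxp3 had 248 and 81.0 CPM in the cluster.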

How the results depend on the processing

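Over the planned and added alternatives, 64 of 73 counts and 208 of 235 ratios kept within the limits set for them, and 0 of the ratios past 2-fold were reversed. Of the counts that moved, members at least 2-fold higher in the thymus went from 2 to 1 over clusters with at least 20 cells of each library. In the spleen the 1 higher member went to 0 with totals without mitochondrial, ribosomal protein and Malat1 counts, to 0 with the median of ratios, to 2 with every barcode and to 4 over shared clusters (Tnfrsf9, Cd27, Tnfrsf1a and Tnfsf10). In the tumor, 0 higher members became 1, Tnfrsf1a, over shared clusters, and 3 lower members became 1 with all cell classes, 1 with a minimum of 100 UMIs and 1 over shared clusters. For these the cause was not tested, except that a minimum of 100 UMIs leaves fewer members. Shared clusters, leaving out cluster 6 and adding the CD4-or-regulatory-T-like cluster were chosen after seeing the data. The ratio of Tnfsf10 in the thymus and that of Cd70 in the tumor stayed past 2-fold in all 8 and all 12 alternatives run for them. Over shared clusters the first rested on 1 and 31 UMIs, and the second on 17 and 2 in cluster 2 and 8 and 2 in cluster 3. The ratio of Tnfrsf1b in the thymus stayed past 2-fold in 7 of 8 alternatives. In the tumor that of Tnfrsf4 did so in 11 of 13 and that of Fas in 9 of 12. That of Cd27 in the spleen did so in 5 of 8, with its lowest value, 0.79, under the stricter cell filter. Shares of cells depend on depth: 47 of 60 moved without thinning and 37 of 60 when thinned to 500 UMIs. The count of 3 members higher in the tumor tissue and of 4 higher in T cell-like cells kept within the limits set for them in every such alternative. These limits let a count of 3 become 2, so not every one of the 3 members held throughout. With all cell classes of the tumors, Tnfrsf18 fell short of 2-fold above the spleen. Per T cell marker UMI, a measure chosen after seeing the data, 0 of the 4 members higher in T cell-like cells were 2-fold higher in both libraries. No paired analysis was possible because each tissue had 1 library per label from different mice. With 1 library per label, differences between mice, between libraries and between labels cannot be told apart.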
